A study of Mus musculus with 6 samples.

Results

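The genes described here encode the enzymes that build sterols and fatty acids and those that break fatty acids down, with 3 regulators of the sterol branch. They were chosen by symbol through their Entrez identifiers, and all 35 were found among the 23725 genes of the count table. They comprise 12 genes of sterol synthesis, 3 sterol regulators, 10 genes of fatty acid synthesis, 3 long-chain acyl-CoA synthetases and 7 genes of fatty acid oxidation. Extracellular vesicles (EVs) of MLP29 cells, a mouse liver progenitor line, were given for 24 h to fibroblasts of the mouse embryonic line 3T3-L1 on 3 plates that each received a separate EV preparation (libraries 1, 2 and 4). The 3 control plates (libraries 1, 2 and 3) received preparations made by the same isolation from medium in which no cells had grown. All 6 plates were kept in HEPES-buffered complete DMEM that had been cleared of serum vesicles by ultracentrifugation. Each group is therefore 3 plates of a single cell line, and p-values measure the spread between these plates and preparations. The question of the comparison is what EV treatment did to the RNA of the fibroblasts.

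Sterols are made from acetyl-CoA through mevalonate, isoprenoid units, squalene and lanosterol. When sterols are scarce, the transcription factor SREBP-2 (gene Srebf2) is escorted by Scap from the endoplasmic reticulum to the Golgi, cut, and released to the nucleus, and Insig1 holds it back when sterols are plentiful. Fatty acids are made from the same acetyl-CoA through malonyl-CoA, then elongated and desaturated. Malonyl-CoA blocks carnitine palmitoyltransferase 1, the entry step of mitochondrial fatty acid oxidation, so that a cell normally does not build and burn fatty acids at once.

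The libraries held between 508599 and 665465 counts each. A single count was worth between 1.56 and 2.11 normalized CPM (counts scaled to library size, here with edgeR's TMM factors). The low number of counts limits what can be seen of most of these genes. The paper describes sequencing to far more reads per library than were counted, and the reason for the gap was not tested. The 35 genes together took between 0.118% and 0.125% of each library. The library kit keeps the strand of the RNA, but the strand setting of the counting is not given in the sources used here. Opposite-strand exon overlaps, in which exons of 2 genes on opposite strands share bases, were annotated in GENCODE for 24.8% of all matched genes, but for 66 of the 83 matched genes among the 100 most counted. A value below is the count listed under a gene. It is not taken as the amount of that gene's mRNA, and the part of opposite-strand reads in it was not tested.

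Promoter windows are shown first, for the genes with a window whose results are described most fully and for Hmgcs1, which holds the letters of a sterol regulatory element. The windows run from 250 bases before to 50 bases after an annotated start and come from RefSeq for GRCm38.p6, which had one for 29 of the 35 genes. Fads1, Fdft1, Fdps, Scd1, Scd2 and Sqle had none there. The motifs searched on both strands were the sterol regulatory element core TCACNCCAC, the CCAAT box CCAAT, the GC box GGGCGG and the E-box CACGTG, and capitals mark their matches. The window of Fasn lies at chr11:120824498-120824797 on the minus strand and holds 3 CCAAT boxes, of which a pair overlap. That of Fads2 lies at chr19:10101454-10101753 on the minus strand and holds 1 GC box. The window of Acadvl, at chr11:70015379-70015678 on the minus strand, holds none of these motifs. The Hmgcs1 window, at chr13:119690101-119690400 on the plus strand, holds 1 sterol regulatory element core, 4 CCAAT boxes and 3 GC boxes.
Fasn: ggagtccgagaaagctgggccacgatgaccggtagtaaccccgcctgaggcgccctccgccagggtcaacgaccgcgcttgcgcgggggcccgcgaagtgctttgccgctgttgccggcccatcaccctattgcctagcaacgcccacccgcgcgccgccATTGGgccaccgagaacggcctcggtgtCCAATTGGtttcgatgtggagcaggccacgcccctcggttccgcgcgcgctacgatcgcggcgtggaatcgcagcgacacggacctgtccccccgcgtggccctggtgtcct
Fads2: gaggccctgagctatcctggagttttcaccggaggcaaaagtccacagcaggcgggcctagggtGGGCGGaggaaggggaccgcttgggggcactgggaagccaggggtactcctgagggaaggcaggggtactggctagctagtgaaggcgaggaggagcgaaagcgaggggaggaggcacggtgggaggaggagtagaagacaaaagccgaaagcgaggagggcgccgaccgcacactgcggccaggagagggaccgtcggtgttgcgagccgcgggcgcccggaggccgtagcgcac
Acadvl: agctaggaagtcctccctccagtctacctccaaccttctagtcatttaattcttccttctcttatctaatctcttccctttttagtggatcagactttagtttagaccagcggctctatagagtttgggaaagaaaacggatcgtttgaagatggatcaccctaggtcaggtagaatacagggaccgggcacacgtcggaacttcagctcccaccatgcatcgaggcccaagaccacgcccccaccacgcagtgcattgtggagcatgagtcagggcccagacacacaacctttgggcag
Hmgcs1: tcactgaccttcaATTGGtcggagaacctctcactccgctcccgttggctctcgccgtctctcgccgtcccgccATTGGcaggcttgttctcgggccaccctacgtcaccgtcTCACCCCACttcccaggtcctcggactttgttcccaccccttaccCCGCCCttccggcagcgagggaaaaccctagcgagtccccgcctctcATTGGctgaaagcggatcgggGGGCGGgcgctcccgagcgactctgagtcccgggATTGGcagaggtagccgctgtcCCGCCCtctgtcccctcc

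Among all 32851 windows of this length, 37.4% held a CCAAT box, 35.7% a GC box, 7.15% an E-box and 1.24% the sterol regulatory element core. All 9 sterol synthesis windows held a CCAAT box, against 4 of 7 in fatty acid synthesis and 1 of 7 in fatty acid oxidation. A GC box was found in 8 of the 9 sterol synthesis windows, in 3 of 7 of fatty acid synthesis and in 5 of 7 of oxidation. The sterol regulatory element core was in 2 windows, those of Hmgcs1 and Acsl1, and the E-box in 5. These matches describe the letters in the windows and say nothing of binding.

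Of the 35 genes, 17 passed edgeR's filter on low counts and were tested, and 18 did not pass it. With no filter, none of those 18 passed the threshold. Counts in the EV libraries were lower for 3 genes of fatty acid synthesis, Fasn, Acaca and Fads2, and higher for Fdft1 of sterol synthesis and Acadvl of fatty acid oxidation. The other 12 tested genes did not pass an adjusted p of 0.05 by edgeR's quasi-likelihood test (Benjamini-Hochberg, 5066 genes). Those 5 of 17 stand beside 22.1% of all tested genes past the threshold, 14.4% lower and 7.68% higher, and are close to that background. The log2 fold change (EV over control) was below 0 for 12 of the 17 and above 0 for 5, with a median of -0.19, where all tested genes had a median of 0.01. The libraries of the groups did not overlap for 14 of the 35 genes, 10 with every EV library below every control library and 4 the other way. Among those 10, Idi1, Scap, Elovl1, Acsl3 and Acadl were under the filter, and the 4 were all tested. Of all tested genes 39.4% did not overlap, 21.5% with EV below and 17.9% with EV above. These shares leave out genes under the filter, so they are not a like background for the 14 of 35. In bulk RNA, fewer cells that use a gene and less RNA per cell cannot be told apart.

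**Figure D1:**
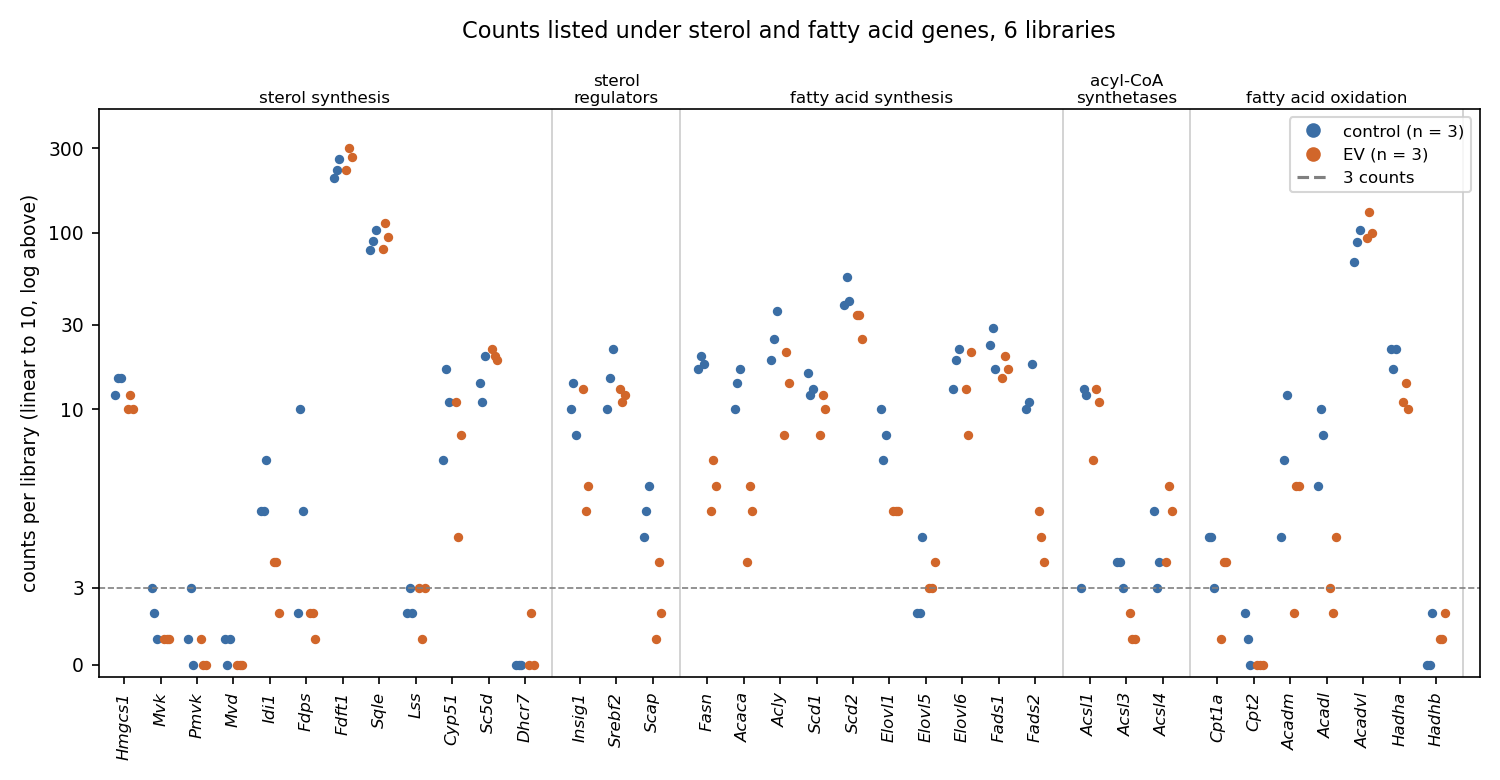
Counts listed under each of the 35 genes in every library, by class, on an axis that is linear up to 10 counts and logarithmic above. Blue points are the 3 control libraries, orange points the 3 EV libraries, and the dashed line marks 3 counts. Fdft1, Sqle and Acadvl stand above the other genes, and 7 genes lie at or under 3 counts in every library.

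Fatty acid synthesis held 10 genes, 8 of which were tested, and all 8 had a log2 fold change below 0 (-1.17 to -0.12, median -0.50). Of all tested genes 48.8% lay below 0, and 62.6% of those without an opposite-strand exon overlap, to which 7 of the 8 belong. The 3 that passed the threshold were lower, and none was higher. Fasn encodes fatty acid synthase, the enzyme that assembles palmitate. Fasn (chromosome 11, 120805958 to 120825166 of GRCm38) had 17, 20 and 18 counts in control and 6, 8 and 7 in EV libraries. The EV values all lay below the lowest control value. Its normalized level fell from 30.7 ± 2.29 to 13.4 ± 0.71 CPM (SD, n = 3), with a log2 fold change of -1.17 and a standard error of 0.36 (adjusted p = 0.0133 by edgeR's quasi-likelihood test).

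Acaca, acetyl-CoA carboxylase 1, makes the malonyl-CoA that Fasn uses and that blocks the entry of fatty acids into mitochondria. It had 10, 14 and 17 counts in control and 4, 7 and 6 in EV libraries, again with no overlap. The log2 fold change was -1.05 (standard error 0.40), at the edge of the threshold (adjusted p = 0.04997 by edgeR's quasi-likelihood test), and the gene missed it in 12 of the 13 alternative analyses that could test it. Fads2, the delta-6 desaturase that starts the synthesis of long polyunsaturated fatty acids, had 10, 11 and 18 counts in control and 6, 5 and 4 in EV libraries. All EV values lay below all control values, and the log2 fold change of -1.16 had a standard error of 0.42 (adjusted p = 0.0392 by edgeR's quasi-likelihood test). Fads2 missed the threshold in 9 of 13 alternatives and Fasn in 3 of 13, and without control library 2, where 9.79% of all tested genes passed and 8.29% were lower, none of these genes did. With the DESeq2 Wald test, by which 10.1% of all tested genes passed and 5.76% were lower, none of the 3 passed either (adjusted p between 0.124 and 0.253).

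The other tested genes of the class did not pass the threshold. Acly, ATP citrate lyase, which supplies cytosolic acetyl-CoA to both fatty acid and sterol synthesis, had 19, 25 and 36 counts in control and 9, 21 and 14 in EV libraries. Its groups overlapped, and the log2 fold change of -0.66 had a standard error of 0.29 (adjusted p = 0.091 by edgeR's quasi-likelihood test). Scd2, a stearoyl-CoA desaturase that makes monounsaturated fatty acids, was the most counted gene of the class with 39, 56 and 41 counts in control and 34, 34 and 25 in EV libraries. The raw EV counts lay below the control counts, but after scaling the groups overlapped, with a log2 fold change of -0.34 and a standard error of 0.22 (adjusted p = 0.248 by edgeR's quasi-likelihood test). Its paralog Scd1 lies beside it on chromosome 19 and had 16, 12 and 13 counts in control and 9, 12 and 10 in EV libraries. How reads that match both paralogs were counted is not given in the sources used here, so the split between Scd1 and Scd2 is uncertain.

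Fads1, the delta-5 desaturase that acts after Fads2, had 23, 29 and 17 counts in control and 15, 20 and 17 in EV libraries (log2 fold change -0.21, standard error 0.28). Fads1 and Fads2 are neighbours on chromosome 19, and the libraries of Fads1 overlapped where those of Fads2 did not; the difference between them was not tested. Of the elongases, which lengthen fatty acids beyond palmitate or extend unsaturated ones, Elovl6 was the one of the 3 listed that was tested, with 13, 19 and 22 counts in control and 13, 9 and 21 in EV libraries (log2 fold change -0.12, standard error 0.32). Elovl1 had 10, 8 and 9 counts in control and 6 in each EV library, below the filter. Elovl5 had between 2 and 5 counts in every library, under the filter.

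Most tested genes of sterol synthesis lay on the other side. Of its 12 genes 4 were tested: the log2 fold change was above 0 for Fdft1, Sqle and Sc5d and below 0 for Hmgcs1 (median 0.34), and only Fdft1 passed the threshold. By group means, 7 of the 12 were lower in EV libraries and 5 higher. Of the 8 under the filter, 6 had the lower mean, though 5 of the 12 were at or under 3 counts in every library. Fdft1 encodes squalene synthase, which commits farnesyl units to sterols. It had 204, 227 and 261 counts in control and 225, 300 and 269 in EV libraries. Raw counts overlap, but after scaling to library size every EV library was above every control library, at 507 ± 27.7 against 384 ± 20.4 CPM (SD, n = 3). Its log2 fold change was 0.40 with a standard error of 0.11 (adjusted p = 0.0066 by edgeR's quasi-likelihood test). It was 0.26 and missed the threshold when the counts were scaled only by each library's total over the tested genes (adjusted p = 0.0596). Under that scaling the median over all tested genes is -0.12 in place of 0.01 and 1.78% of them are higher. Fdft1 missed the threshold in 3 of 13 alternatives, the others being without control library 1 (adjusted p = 0.0546) and without control library 2 (adjusted p = 0.0732), by the same edgeR test.

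Sqle, squalene epoxidase, is the next step and a rate-limiting one. It had 80, 90 and 104 counts in control and 81, 114 and 95 in EV libraries. Scaled levels were 152 ± 8.93 CPM in control and 185 ± 15.0 CPM in EV libraries, all EV above all control values, but the log2 fold change of 0.28 (standard error 0.15) did not pass (adjusted p = 0.159 by edgeR's quasi-likelihood test). Sc5d, sterol C5-desaturase of the late pathway, had 14, 11 and 20 counts in control and 22, 20 and 19 in EV libraries. After scaling, the EV libraries again lay above the control libraries, at 39.4 ± 6.18 against 25.0 ± 6.72 CPM (SD, n = 3), with a log2 fold change of 0.64 and a standard error of 0.30 (adjusted p = 0.112). Both passed only in the fit limited to genes without an opposite-strand exon overlap, with log2 fold changes of 0.47 for Sqle (adjusted p = 0.0291) and 0.82 for Sc5d (adjusted p = 0.0388), by the same edgeR test, where 8.95% of the genes of that fit were higher.

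The early enzymes had few counts. Hmgcs1, which makes HMG-CoA, had 12, 15 and 15 counts in control and 10, 12 and 10 in EV libraries. After scaling the EV values lay below the control values, by a log2 fold change of -0.19 with a standard error of 0.34 (adjusted p = 0.72 by edgeR's quasi-likelihood test). Idi1, which interconverts the isoprenoid units, had 6, 6 and 8 counts in control and 4, 4 and 2 in EV libraries. Those EV values lie below the control values, but the gene was under the filter. Fdps makes the farnesyl diphosphate that Fdft1 consumes and had 2, 10 and 6 counts in control and 2, 2 and 1 in EV libraries. The mevalonate enzymes Mvk, Pmvk and Mvd, lanosterol synthase (Lss) and the last reductase Dhcr7 had at most 3 counts in any library, which gives no fold change. Cyp51, lanosterol demethylase, had 8, 17 and 11 counts in control and 11, 5 and 9 in EV libraries. Per kilobase of exon, the control level was 91.0 CPM for Fdft1, 27.4 for Sqle, 5.14 for Sc5d and 2.32 for Fdps. Genes of the same pathway thus differed widely in what was listed under them.

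None of the sterol regulators passed the threshold. Srebf2 had 10, 15 and 22 counts in control and 13, 11 and 12 in EV libraries, with overlap (log2 fold change -0.18, standard error 0.33, adjusted p = 0.728 by edgeR's quasi-likelihood test). Insig1, itself a target of SREBP-2, had 10, 14 and 9 counts in control and 13, 6 and 7 in EV libraries, also with overlap (log2 fold change -0.14, standard error 0.39). The sign of both changed in some of the alternative analyses. Scap had 5, 6 and 7 counts in control and 1, 4 and 2 in EV libraries, no overlap, and was under the filter.

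Acyl-CoA synthetases activate fatty acids for storage, membranes or oxidation. Acsl1 had 3, 13 and 12 counts in control and 8, 13 and 11 in EV libraries, overlapping, with a log2 fold change of 0.39 and a standard error of 0.39 (adjusted p = 0.49 by edgeR's quasi-likelihood test). Acsl3 had 4, 4 and 3 counts in control and 2, 1 and 1 in EV libraries. Acsl4 had 6, 3 and 4 in control and 4, 7 and 6 in EV libraries. Both were under the filter.

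Fatty acid oxidation had 7 genes, of which 2 were tested, with log2 fold changes on opposite sides of 0. Acadvl, very long-chain acyl-CoA dehydrogenase, catalyses the first step of the mitochondrial cycle for long chains. Its counts were 68, 88 and 103 in control and 93, 130 and 100 in EV libraries. After scaling, every EV library was above every control library, at 206 ± 20.3 against 143 ± 17.7 CPM (SD, n = 3), with a log2 fold change of 0.52 and a standard error of 0.15 (adjusted p = 0.0089 by edgeR's quasi-likelihood test). It missed the threshold in 4 of 13 alternatives, with an adjusted p of up to 0.103 when control library 1 was left out.

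Hadha, the alpha subunit of the mitochondrial trifunctional protein, had 22, 17 and 22 counts in control and 11, 14 and 10 in EV libraries. All EV values lay below all control values, but the log2 fold change of -0.60 (standard error 0.31) did not pass (adjusted p = 0.159 by edgeR's quasi-likelihood test). Its partner Hadhb, the beta subunit, is the neighbouring gene on chromosome 5 and lies on the opposite strand. Hadhb starts at 30155253 on the plus strand and Hadha at 30154980 on the minus strand (GRCm38). Hadhb had 0, 0 and 2 counts in control and 1, 1 and 2 in EV libraries. Per kilobase of exon the control level was 3.92 CPM for Hadha and 0.16 for Hadhb.

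Cpt1a, the entry step that malonyl-CoA blocks, had 5, 5 and 3 counts in control and 1, 4 and 4 in EV libraries. Cpt2, its partner on the inner membrane, had 2, 1 and 0 counts in control and none in the EV libraries. A count of 0 in a library taken alone allows up to 3 expected counts (95% limit), and 0 in all EV libraries together allows fewer. Acadm, medium-chain acyl-CoA dehydrogenase, had 5, 8 and 12 counts in control and 2, 7 and 7 in EV libraries. Acadl, the long-chain enzyme, had 7, 10 and 9 counts in control and 3, 2 and 5 in EV libraries, with no overlap. Its level was 14.4 ± 1.70 CPM in control and 6.48 ± 3.04 CPM in EV libraries (SD, n = 3), under the filter. With no filter its log2 fold change was -1.06 with a standard error of 0.49 (adjusted p = 0.206 by edgeR's quasi-likelihood test).

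**Figure D2:**
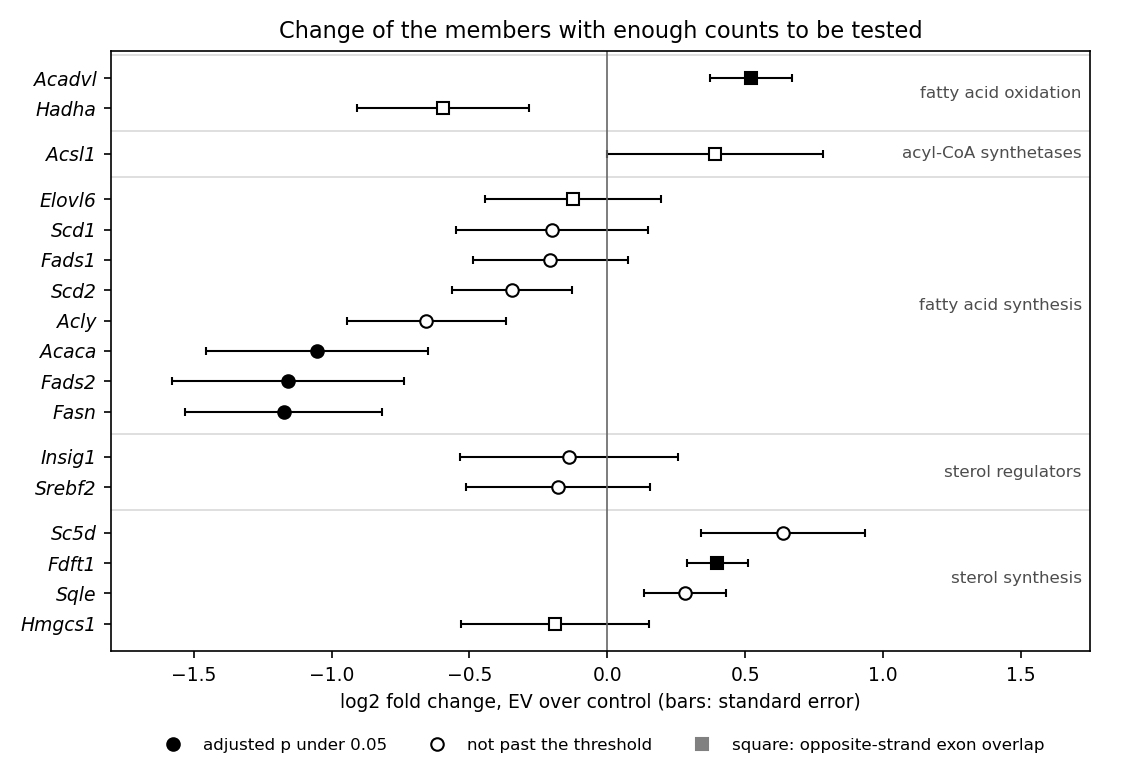
Log2 fold change (EV over control, horizontal axis) with its standard error for the 17 tested genes, by class. Filled symbols passed an adjusted p of 0.05 and squares mark genes with an opposite-strand exon overlap. All 8 fatty acid synthesis genes lie below 0, and 3 of the 4 sterol synthesis genes lie above it.

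Both genes that were higher carry an overlap on the opposite strand, and the 3 that were lower carry none. In the GENCODE vM21 models of GRCm38, the 3′ end of Fdft1 (chromosome 14, from 63145150) overlaps the 3′ end of Ctsb, cathepsin B, over 774 bases, 18.3% of the exon bases of Fdft1. Ctsb had 47, 55 and 42 counts in control and 21, 34 and 28 in EV libraries, with a log2 fold change of -0.59 and a standard error of 0.22 (adjusted p = 0.0419 by edgeR's quasi-likelihood test), opposite in sign to Fdft1. The 3′ end of Acadvl (chromosome 11, from 70010183) overlaps Dvl2, a Wnt pathway protein, over 1151 bases, 42.9% of the exon bases of Acadvl. Dvl2 had 849, 1016 and 1144 counts in control and 963, 1245 and 1094 in EV libraries, with a log2 fold change of 0.34 and a standard error of 0.09 (adjusted p = 0.0033 by the same test), the same sign as Acadvl. In RefSeq, Dvl2 ends at 70010109, before Acadvl, so this overlap exists only in the GENCODE models. The nearest opposite-strand exon is 805 bases from Sqle and 105089 bases from Sc5d.

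Counts across the table differed with this property. Of the 2625 tested genes without an opposite-strand exon overlap, 19.9% were lower and 2.55% higher in the EV libraries, with a median log2 fold change of -0.21. Of the 2066 with an overlap, 9.49% were lower and 12.4% higher, with a median of 0.13. Among the 11 tested genes of the set without an overlap, 3 were lower and none higher (median -0.21), and among the 6 with an overlap, none was lower and 2 higher (median 0.13), and the difference was not tested. The part of the overlap in the difference between sterol and fatty acid synthesis was not tested. Fasn was lower also in the fit limited to genes without an overlap (log2 fold change -0.99, adjusted p = 0.039 by edgeR's quasi-likelihood test, 12.2% of the genes of that fit lower), whereas Acaca and Fads2 were not past the threshold there.

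**Figure D3:**
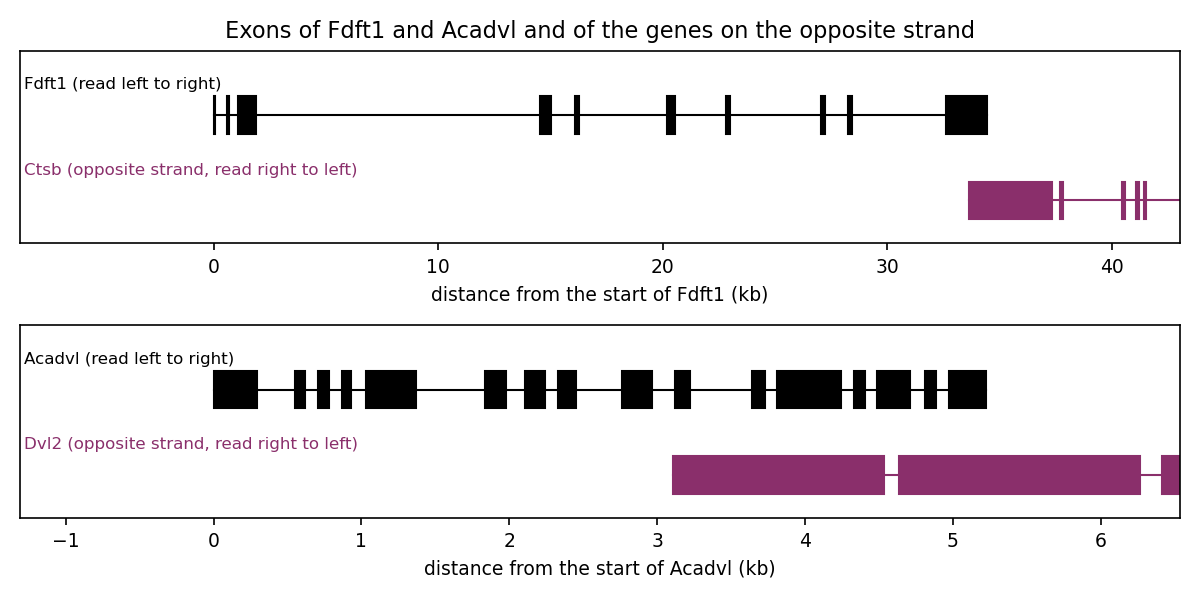
Exon models of Fdft1 with Ctsb (top) and of Acadvl with Dvl2 (bottom), drawn to scale against the distance in kilobases from the start of Fdft1 or Acadvl. Boxes are exons and lines introns, and Fdft1 and Acadvl are drawn left to right. The opposite-strand gene overlaps the 3′ end in both, over 774 bases of Fdft1 and 1151 bases of Acadvl.

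Summed by class, the normalized counts of the 10 fatty acid synthesis genes were 294, 319 and 306 CPM in the control libraries and 222, 220.2 and 219 CPM in the EV libraries. Every EV sum was below every control sum, and the EV mean was 0.72 times the control mean. This did not rest on the 3 genes past the threshold alone: without them the sums were 225, 246 and 223 CPM in control and 188, 185 and 186 CPM in EV libraries. Sums of the 12 sterol synthesis genes lay on the other side, at 615, 624 and 670.1 CPM in control and 761, 812 and 784 CPM in EV libraries.

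Most of the sterol synthesis sum belonged to 2 genes. Without Fdft1 and Sqle it was 90.5, 109 and 99.96 CPM in control and 114, 82.8 and 86.3 CPM in EV libraries, and the groups overlapped. The oxidation sum was 201, 209.7 and 236 CPM in control and 235, 278 and 245 CPM in EV libraries, also overlapping. Without Acadvl it was 75.7, 66.7 and 75.0 CPM in control and 38.0, 49.3 and 53.7 CPM in EV libraries, with every EV sum below every control sum and a ratio of 0.65. Fatty acid oxidation without Acadvl thus lay on the same side as fatty acid synthesis. The genes left out of these sums were chosen after their values were seen, and no test was made of the sums or of the difference between classes.

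**Figure D4:**
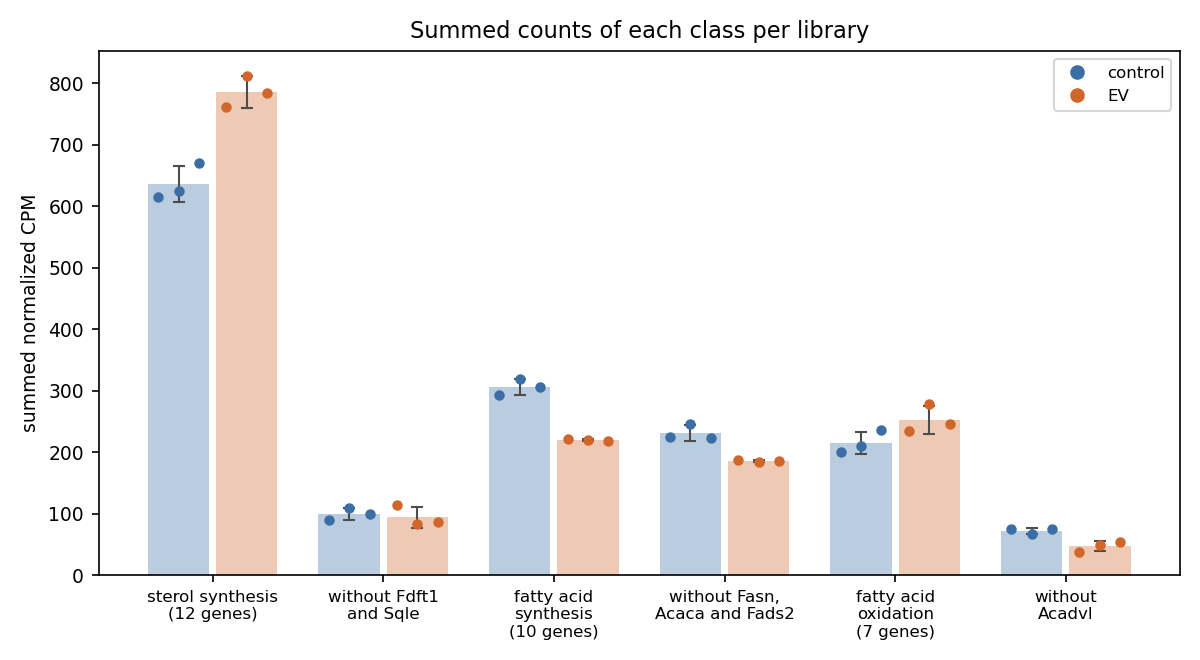
Summed normalized CPM of each class per library (points), with the mean (bars, from 0) and the standard deviation (error bars, n = 3), for the whole class and without the genes named. The fatty acid synthesis sums are lower in all EV libraries, while the sterol synthesis sums are higher in all EV libraries for the whole class and overlap without both Fdft1 and Sqle.

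Across the whole set, 25 of the 35 genes had a lower mean in the EV libraries and 10 a higher one. Of the 18 genes under the filter, 13 had the lower mean. Of 72 further genes of these pathways, 52 had a lower mean and 16 a higher one. Among the 55 of them under the filter, 44 had the lower mean. The share of all genes with a lower mean was not counted, so these counts are not read as particular to the pathways. Across the table, the median log2 fold change was -0.13 over 15321 genes with no filter, against 0.01 over the 5066 tested. Control libraries had 12529 to 12877 genes with a count, and EV libraries 11624 to 12262. Sums over all 35 genes were 1180, 1242 and 1301 CPM in control and 1304, 1385 and 1323 CPM in EV libraries. Fdft1, Sqle and Acadvl each had every EV library above every control library after scaling, and they were left out after their values were seen, so that the order of the remaining sums rests in part on that choice. The other 32 genes summed to 530, 584 and 570.1 CPM in control and 461, 426 and 433 CPM in EV libraries.

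Genes of the same pathways outside this set were mostly not past the threshold. Of 72 further genes, 17 were tested, none was lower and 1 was higher, beside 14.4% and 7.68% of all tested genes. The tested ones were 2 of 10 genes of sterol synthesis, 6 of 14 of sterol uptake, transport and SREBP processing, 6 of 21 of fatty acid synthesis and 3 of 27 of fatty acid oxidation. The 6 further genes of fatty acid synthesis lay above 0 in 4 cases and below in 2 (median log2 fold change 0.24), where all 8 described above lay below 0. The 2 lists are unlike. The further genes include a long-chain acyl-CoA synthetase, and genes with an opposite-strand exon overlap on both sides of 0. This difference between the lists was not tested. The gene past the threshold was Npc1, which exports cholesterol from lysosomes. It had 62, 67 and 110 counts in control and 81, 116 and 93 in EV libraries, with overlapping groups after scaling and a log2 fold change of 0.48 and a standard error of 0.16 (adjusted p = 0.0247 by edgeR's quasi-likelihood test). Exons of Npc1 too are overlapped on the opposite strand, by Rmc1, over 511 bases.

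Marker genes were used to check what the cells were. All but Lum of the 13 fibroblast markers were tested, and Lum was at 0 in every library. Their summed level was between 2477 and 2891 CPM in control libraries and between 1158 and 1454 CPM in EV libraries, and 7 were lower, among them Fn1, Vim, Col1a1 and Col1a2, beside 14.4% of all tested genes. Col5a1, Thy1, Pdgfra, Pdgfrb and Ddr2 did not pass the threshold. This lower level went with the lower counts of fatty acid synthesis genes, and its part in them was not tested. Of the 10 adipocyte markers 8 were at or under 3 counts in every library, with Adipoq, Lep, Plin1, Cidec, Retn and Cfd at 0, and only Lipe, hormone-sensitive lipase, was tested (log2 fold change 0.46, not past the threshold). The adipocyte sum was between 53.5 and 90.6 CPM in control and between 80.5 and 95.1 CPM in EV libraries, most of it from Lipe. Exons of Lipe are also overlapped by a gene on the opposite strand. Of the 11 liver progenitor markers of the EV donor cells 10 were at or under 3 counts, with Alb, Afp, Krt8, Krt18, Krt19, Epcam, Apoa1, Ttr and Hnf4a at 0 in every library.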

How the data were processed

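RNA-seq counts of 6 libraries were analysed, 3 control and 3 EV, grouped by the sample labels. The authors mapped the reads to mm10 with STAR, made a table of raw counts with Rsubread and deposited these counts without normalization. Tool versions, annotation release, strand setting and handling of multi-mapped reads are not given in the sources used here. Reads and the proteomics data of the study were not analysed here.

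Symbols and coordinates came from RefSeq (GRCm38.p6), which named 99.8% of the genes listed, and opposite-strand exon overlaps and exon lengths from GENCODE vM21 of the same assembly, which matched 88.7%. Counts were tested with edgeR 4.0.16 (R 4.3.3; low counts removed by filterByExpr, scaling by TMM, glmQLFit, glmQLFTest, no covariates), with Benjamini-Hochberg adjustment over the 5066 genes kept and a threshold of 0.05. The standard error was taken as the absolute log2 fold change over the root of the F statistic. The biological coefficient of variation was 0.0779. No pair of replicates agreed within sampling noise (chi-square per degree of freedom 1.20 to 1.94). Genes at or under 3 counts in every library were given no fold change, and intervals or floors cover counting error only.

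The alternatives were DESeq2's size factors, total library size, the Wald test of DESeq2 1.42.0, no filter, at least 10 counts in every library, the replicate number as a block, genes without an opposite-strand overlap alone, and each library left out. Total library size here means each library's total of counts in the tested genes, with no TMM factor. The edgeR and DESeq2 fits were checked on simulated counts, and the legacy quasi-likelihood fit was chosen after seeing the data. The genes, lists and tests were chosen with earlier results of these data known. Every gene of the 5 classes is named, and of the further pathway and marker lists up to 4 past the threshold and the markers at 0, with genes that overlap a named gene on the opposite strand. Marker genes described beyond that were chosen after their values were seen.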

Additional observations from a re-analysis of the deposited data

How the results depend on the processing

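Of the 17 genes tested, 13 kept the sign of their log2 fold change in all alternatives that could test them. The others turned: Insig1 was 0.047 among genes without an opposite-strand overlap and between -0.61 and 0.13 with each library left out (0.014 without control library 2). Srebf2 was 0.0073 among genes without an overlap, 0.094 with the replicate block and between -0.40 and 0.036 with each library left out. With single libraries left out, Elovl6 lay between -0.50 and 0.18 and Acsl1 between -0.0047 and 0.65. The cause was not tested.

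The count of 5 genes past the threshold was 2 with the DESeq2 Wald test (Fdft1 and Acadvl, 0 lower), 2 with no filter (0 lower), 2 with at least 10 counts in every library, where Fasn, Acaca and Fads2 were not tested (0 lower), 3 with the replicate block (1 lower) and 3 among genes without an overlap (1 lower, Fasn, with Sqle and Sc5d higher). All lower genes belong to fatty acid synthesis, so its count was 0, 0, 0, 1 and 1 in the same alternatives. Of all genes tested in each, 10.1%, 5.57%, 17.5%, 22.1% and 21.1% passed, against 22.1% in the main fit. Those lower were 5.76%, 3.21%, 13.5%, 13.9% and 12.2%, against 14.4%. With total library size no gene was higher, leaving 0 in sterol synthesis and 0 in oxidation, and Acly joined the lower genes (adjusted p = 0.046 by edgeR). In sterol synthesis 2 genes passed among those without an overlap. Leaving out each library in turn gave 0 to 4 genes past the threshold, 0 to 2 lower and 0 to 2 higher, with 0 to 1 in sterol synthesis, 0 to 2 in fatty acid synthesis and 0 to 1 in oxidation. Without control library 2 it was 0 (9.79% of all tested genes passed), and without control library 1 only Fasn passed. Without EV library 2, Fasn and Fdft1 passed, and without EV library 4 or control library 3 these and Acadvl. Over the fits with a library left out, 9.79% to 22.1% of all tested genes passed, 8.29% to 15.7% lower and 1.5% to 6.73% higher. With total library size 19.1% of all tested genes were lower and 1.78% higher.

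The median of sterol synthesis moved from 0.34 to 0.65 among genes without an overlap and to 0.20 with total library size. That of fatty acid synthesis moved from -0.50 to -0.36 with at least 10 counts in every library and to -0.64 with total library size, with -0.64 to -0.47 when single libraries were left out. Of all tested genes, total library size gave 970 lower and 90 higher against 732 and 389 with TMM, and the Wald test 292 and 220, the latter 512 in all against 1121.

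The groups share the replicate numbers 1 and 2 only, and the deviations of same-numbered libraries correlated at 0.07 and 0.06. Pairs with different numbers lay between -0.097 and 0.054. Deviations at these counts are in part sampling noise, so the correlations cannot decide whether a number paired libraries. The remaining library of each group has a number that the other group lacks. The block fit therefore takes its EV effect from libraries 1 and 2 alone. With the block 1119 genes passed. Low counts limit what can be seen of the 18 genes under the filter, none of which passed when no filter was used.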

Other observations

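Neighbouring desaturase genes of chromosome 19, chosen after their values were seen, did not all lie on the same side. Scd3, another stearoyl-CoA desaturase beside Scd1 and Scd2, was listed at 102.8 ± 17.4 CPM in EV and 77.8 ± 11.9 CPM in control libraries, with a log2 fold change of 0.40 and a standard error of 0.19 (adjusted p = 0.128 by edgeR's quasi-likelihood test), with every EV library above every control library. The log2 fold change of Scd2 had the other sign, and the difference was not tested. As for Scd1 and Scd2, how reads that match several paralogs were counted is not given, so the split with Scd3 is also uncertain. Fads3, next to Fads2, was at 14.2 ± 10.8 CPM in EV and 27.8 ± 3.43 CPM in control libraries, overlapping, with a log2 fold change of -0.91 and a standard error of 0.38 (adjusted p = 0.0727 by the same test).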
